A study of Homo sapiens with 4 samples.

Results

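The genes described here are those of glycolysis, the cytosolic breakdown of glucose to pyruvate and lactate, and of the transcriptional response to low oxygen. The members were a list of 42 gene symbols, chosen with earlier results of these data known. A member counted as found when the array annotation gave its symbol or its current RefSeq symbol (PKM for PKM2, ERO1A for ERO1L). This matching used no measured value. Of these, 40 had at least 1 row in the value table, and 39 had a transcript cluster of their own, the set of probes that reports a transcript, among 18417 genes with such a cluster in all. PGAM1 was found only on clusters shared with PGAM4, and SLC16A3 and CA9 were not analysed here. The study measured OVCAR-3, a long-established line of human ovarian carcinoma cells, with 4 Affymetrix arrays of one colour: 2 of cells transfected with a vector lacking H1.3 (vector only, VO in the titles) and 2 of cells made to overexpress the human linker histone H1.3 (titled H1.3(H), the labels do not explain the H in brackets). Both groups share the line, its culture in RPMI medium with fetal bovine serum and the RNA preparation. No treatment with low oxygen and no oxygen level is given in the labels, nor whether cells were a clone or a pool, which promoter drove H1.3, or whether replicates came from separate transfections. The titles call the 2 arrays of each group biological replicates. The p-values below set differences against the spread between these arrays, moderated with the spread over all clusters tested.

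In glycolysis, hexokinases trap glucose in the cell as glucose 6-phosphate, phosphofructokinases set the pace of the pathway, and the later enzymes yield pyruvate, which lactate dehydrogenase turns into lactate. The transcription factor HIF, made of an oxygen-labile alpha subunit (HIF1A or EPAS1) and the stable partner ARNT, binds a short core sequence called the hypoxia response element. In oxygen, prolyl hydroxylases of the EGLN family mark the alpha subunit for destruction by the VHL ligase, so that HIF is controlled mostly at the protein level. Its targets include most glycolytic enzymes, glucose transporters, PDK1 and genes of vessel growth, pH control, mitophagy and collagen folding.

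Values are log2 levels, on which a difference of 1 is a 2-fold change, and differences are given as arrays labelled H1.3 minus vector only. The gene of H1.3 itself, H1-3, measured 8.65 and 7.88 in the vector-only pair and 7.47 and 7.69 in the H1.3-labelled pair, a difference of -0.69 ± 0.24 (SE) with a limma adjusted p of 0.319. Its level thus ran against the label, and the labels do not say whether its probes lie in the transfected sequence. All 6 epithelial markers, among them EPCAM, CDH1 and KRT8, lay above the median level of the named clusters (6.84 on each array), as did 5 of 6 ovarian carcinoma markers (MUC16, PAX8, WT1, MSLN and WFDC2, but not ESR1). In contrast, 0 of 5 leukocyte, 1 of 6 fibroblast (COL1A1) and 0 of 6 endothelial markers did. With 2 arrays against 2, an exact permutation test of a single gene cannot go below a two-sided p of 0.33, so it cannot reach 0.05. The test used was therefore limma across all 21214 named clusters. It called 0.504% of them at an adjusted p under 0.05, of which 0.24% were higher and 0.264% lower.

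A gene for a HIF alpha subunit was the only member to pass. EPAS1, which encodes HIF-2 alpha, measured 7.05 and 7.21 in the vector-only pair and 7.96 and 8.25 in the H1.3-labelled pair. Both H1.3-labelled values lay above both vector-only values, and the gap between groups was wider than the gap between the arrays of either group. The means were 7.13 ± 0.11 and 8.11 ± 0.21 (SD, n = 2 each), so EPAS1 rose by 0.98 ± 0.14 (SE), or 1.97-fold, with a limma adjusted p of 0.0477. With any 1 array left out the difference was 0.83 to 1.12 (adjusted p 0.433 to 0.803), in fits that called 0 of the 21214 clusters, so that the loss of the call there is no measure of this gene. The call was lost with arrays brought to one median over all clusters, an alternative chosen after seeing the data (adjusted p 0.0701), and in 4 other refits given in the closing section. The paralogue HIF1A, encoding HIF-1 alpha, measured 10.66 and 10.71 against 10.93 and 10.90. Its 2 groups did not overlap either, and its difference of 0.23 ± 0.11 (SE) did not pass (limma adjusted p 0.516). Among these 39 members, then, 1 was called higher and 0 lower. An unadjusted limma p under 0.05 was found for 2 higher and 3 lower members, against 5.21% and 6.34% of all clusters, or 11.5% in either direction. The groups did not overlap for 8 higher and 10 lower members, against 21.2% and 19.4% of all clusters, or 40.6% in either direction. Over clusters at or above the median level, where 36 of the 39 members lie, the shares were 21.7% and 25.9%.

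**Figure D1:**
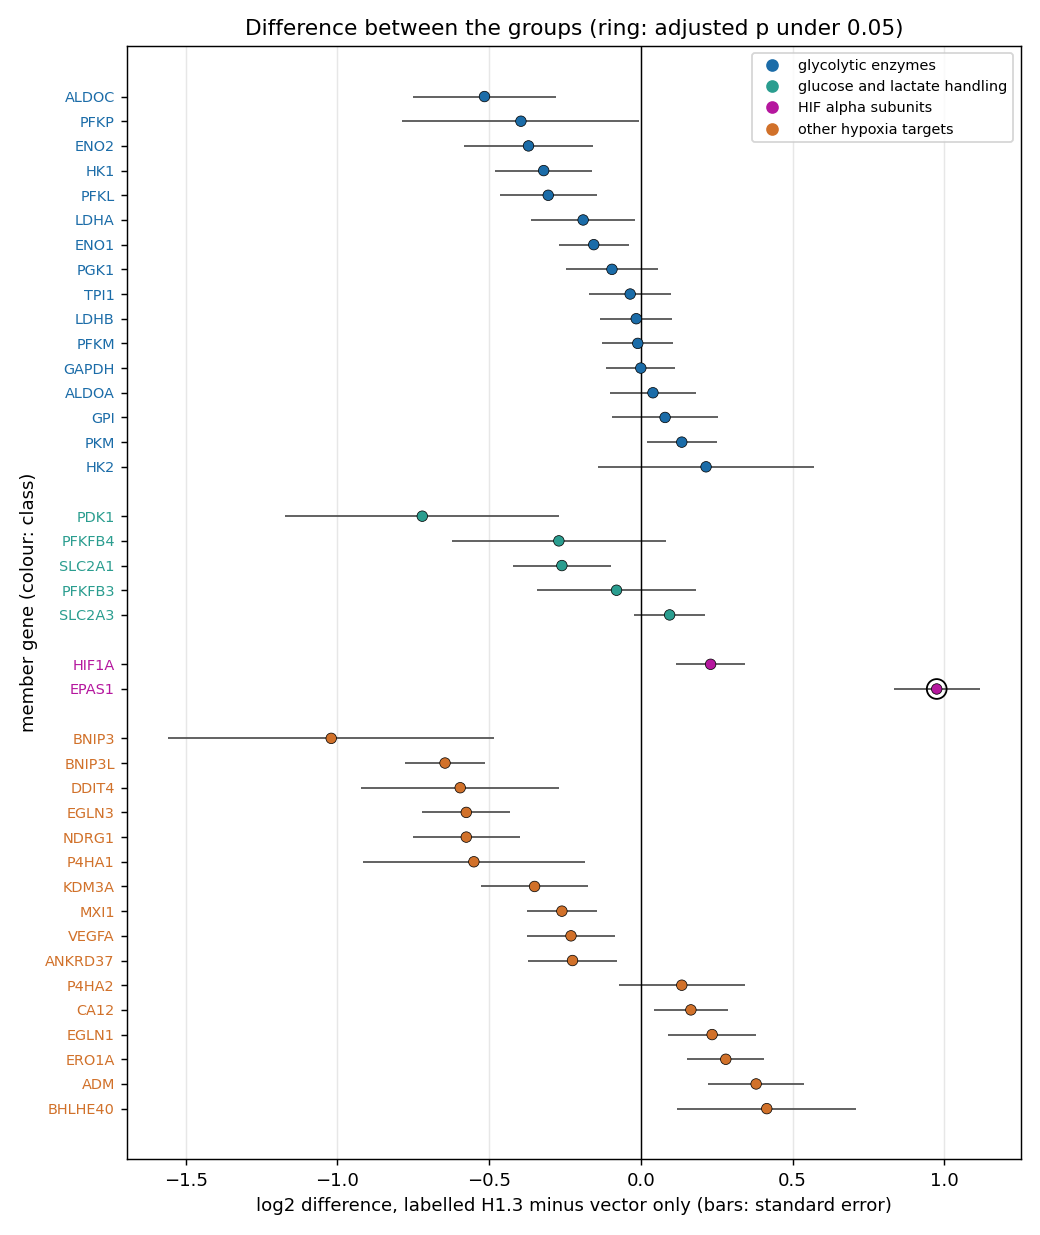
Log2 difference between the arrays labelled H1.3 and the vector-only arrays for each of the 39 members with a cluster of its own, by class; bars are the limma standard error and the ring marks an adjusted p under 0.05. EPAS1, at 0.98, is the only ringed gene, 15 of 16 glycolytic enzymes lie within 0.4 of 0, and BNIP3, at -1.02, has the longest bar.

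None of the glycolytic enzymes passed, and their levels in the 2 groups mostly overlapped. Of 16 enzymes, 11 had a negative difference, 4 a positive one and GAPDH none, and the median was -0.065, against 0.015 over all clusters tested. The smallest adjusted p was 0.474, for ALDOC. At the entry step, HK1, the hexokinase of most tissues, measured 8.24 and 7.81 in the vector-only pair against 7.71 and 7.70. Its difference of -0.32 ± 0.16 (SE) did not pass (limma adjusted p 0.524). HK2, the inducible hexokinase of many tumours, measured 9.68 and 8.56 against 9.64 and 9.03. The first array of each group was thus high and the second low, and the difference between groups of 0.22 ± 0.36 (SE) was smaller than either gap. GPI, which converts glucose 6-phosphate to fructose 6-phosphate, showed the same order, at 11.60 and 11.23 against 11.67 and 11.32.

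The 3 phosphofructokinase genes, whose products commit the sugar to glycolysis, differed from each other. PFKL, the liver-type subunit, measured 10.05 and 9.73 against 9.73 and 9.44, a difference of -0.31 ± 0.16 (SE, limma adjusted p 0.545). PFKM, the muscle-type subunit, stayed between 9.19 and 9.31 on all 4 arrays. PFKP, the platelet-type subunit, measured 7.70 and 6.5 in the vector-only pair against 7.08 and 6.33, with the first array of each group the higher and the groups overlapping. Its difference was -0.40 ± 0.39 (SE), with a limma adjusted p of 0.783.

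Further down, the aldolases split the sugar into triose phosphates. ALDOC, the brain-type isozyme, measured 8.61 and 7.82 against 7.71 and 7.69, and ALDOA, the muscle-type isozyme, measured 8.87 and 8.65 against 8.92 and 8.68. One vector-only array stood high for ALDOC while the other lay near the H1.3-labelled pair, and the difference of -0.52 ± 0.24 (SE) did not pass. TPI1, which interconverts the triose phosphates, had 2 clusters that differed by -0.06 and -0.035. GAPDH, the dehydrogenase of the pathway, held at 13.43 and 13.40 against 13.45 and 13.38, a difference of 0. PGK1, the first ATP-forming enzyme, measured 12.05 and 11.69 against 11.84 and 11.71, with the vector-only arrays on both sides of the H1.3-labelled pair. The 5 clusters annotated to both PGAM1, a phosphoglycerate mutase, and PGAM4 differed by -0.24 to -0.23, with limma adjusted p from 0.631 to 0.649. Signal for abundant enzymes with near-identical gene copies may be shared on such probes.

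At the end of the pathway, ENO1, the main enolase, measured 13.44 and 13.37 against 13.29 and 13.21, without overlap. ENO2, the neuronal enolase, measured 7.71 and 7.03 against 6.98 and 7.02, and only the first vector-only array stood apart. Its difference was -0.37 ± 0.21 (SE, limma adjusted p 0.582). PKM, pyruvate kinase, was the only enzyme with both H1.3-labelled values above both vector-only values, at 12.66 and 12.73 against 12.86 and 12.80. For LDHA, the lactate dehydrogenase subunit that is a HIF target, the values were 12.37 and 11.94 against 12.08 and 11.85. LDHB, the subunit of oxidative tissues, stayed between 12.40 and 12.53. In all, the groups did not overlap for 4 lower enzymes (HK1, ALDOC, ENO1 and ENO2) and 1 higher one (PKM) of 16. These were 25% and 6.25%, against 19.4% and 21.2% of all clusters. Over clusters at or above the median level, where all 16 lie, the shares were 25.9% and 21.7%.

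**Figure D2:**
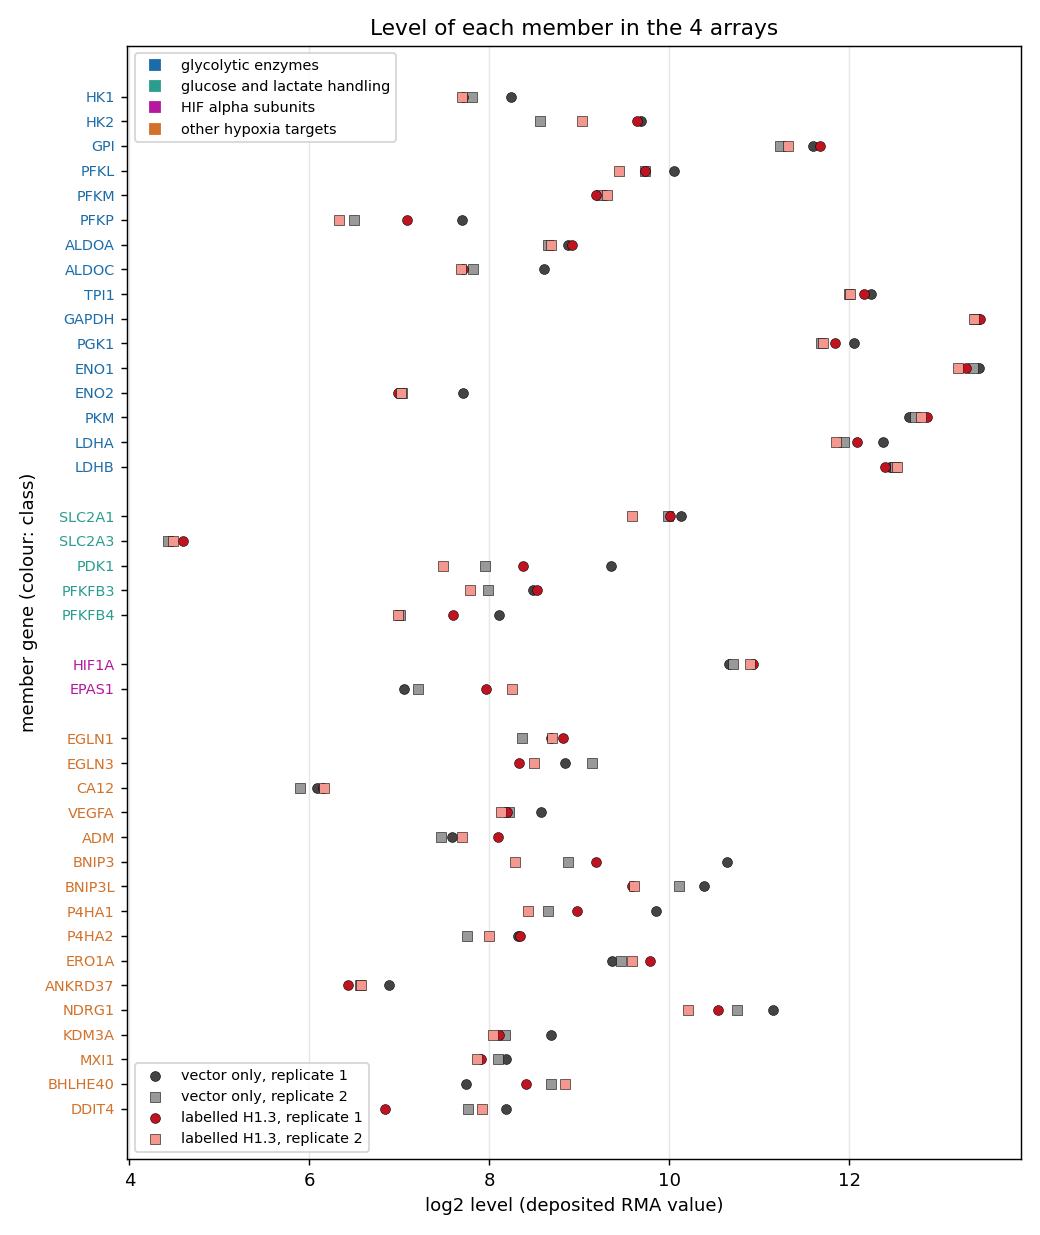
Log2 level of each member in the 4 arrays, 1 row per gene, grouped by class; circles are replicate 1 and squares replicate 2, in dark and light grey for vector only and in red and pink for the arrays labelled H1.3. Circles lie right of squares in both groups for genes such as BNIP3, PDK1, PFKP and HK2, whereas EPAS1 is the gene whose red and pink symbols both stand clear of the grey ones by the widest margin to the right.

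The genes that feed and steer glycolysis differed widely between the arrays of a group, with median gaps of 0.50 and 0.62, and none of the 5 measured passed. PDK1, a kinase that inhibits pyruvate dehydrogenase, measured 9.35 and 7.95 in the vector-only pair against 8.37 and 7.49. Within each group the first array was the higher, by 1.40 and by 0.88, and the difference between groups was -0.72 ± 0.45 (SE, limma adjusted p 0.624). PFKFB4 and PFKFB3 make and remove fructose 2,6-bisphosphate, the activator of phosphofructokinase. PFKFB4 measured 8.11 and 7.01 against 7.60 and 6.98, a difference of -0.27 ± 0.35 (SE), and PFKFB3 measured 8.49 and 7.99 against 8.53 and 7.79, a difference of -0.08 ± 0.26 (SE). SLC2A1, the glucose transporter GLUT1, measured 10.13 and 9.99 against 10.01 and 9.59, a difference of -0.26 ± 0.16 (SE, limma adjusted p 0.623). SLC2A3, the transporter GLUT3, stayed between 4.43 and 4.60, below the median level of the arrays, with a difference of 0.10 ± 0.12 (SE). The median of these 5 genes was -0.26 with all arrays, 0.11 and -0.33 without vector-only replicate 1 or 2, and -0.47 and 0.04 without H1.3 replicate 1 or 2.

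The other hypoxia targets, 16 genes outside glucose metabolism, had a median difference of -0.245 and 10 negative and 6 positive differences, and none passed. Among the oxygen sensors, EGLN3, a prolyl hydroxylase that is itself induced by HIF, measured 8.84 and 9.14 against 8.33 and 8.50. Both H1.3-labelled arrays were lower, and the difference of -0.58 ± 0.14 (SE) had a limma adjusted p of 0.158. EGLN1, the main HIF prolyl hydroxylase, ran the other way, at 8.69 and 8.36 against 8.82 and 8.70.

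The mitophagy receptors BNIP3 and BNIP3L mark mitochondria for removal, and both lay lower on average. BNIP3L measured 10.38 and 10.11 against 9.59 and 9.61, with no overlap. Its difference of -0.65 ± 0.13 (SE) had a limma adjusted p of 0.108, the smallest of this class. It lies on chromosome 8, and the median difference of its 30 nearest neighbours at or above the median level, a limit chosen after seeing the data, was -0.42, while over its 30 nearest neighbours of any level it was -0.06. The part of these neighbours in the result was not tested. BNIP3 measured 10.64 and 8.87 against 9.19 and 8.28, so that the second vector-only array lay within the range of the H1.3-labelled pair. Its difference was -1.02 ± 0.54 (SE, limma adjusted p 0.547), which became -0.14 on leaving out the first vector-only array and -1.91 on leaving out the second.

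Among genes of secreted factors, VEGFA, the vessel growth factor, measured 8.57 and 8.22 against 8.20 and 8.13. ADM, the vasodilator peptide adrenomedullin, was higher in both arrays labelled H1.3, at 7.58 and 7.46 against 8.10 and 7.70. Its difference of 0.38 ± 0.16 (SE) did not pass (limma adjusted p 0.418). CA12, a carbonic anhydrase of the cell surface, measured 6.08 and 5.90 against 6.15 and 6.16, below the median level. For protein folding, P4HA1 and P4HA2, catalytic subunits of collagen prolyl 4-hydroxylase, measured 9.85 and 8.65 against 8.97 and 8.43, and 8.32 and 7.75 against 8.34 and 8.0. In both genes the first array of each group was the higher, and their differences were -0.55 ± 0.37 and 0.14 ± 0.21 (SE). ERO1A, the oxidase of the endoplasmic reticulum, measured 9.36 and 9.46 against 9.79 and 9.59.

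Of the 6 regulators and stress genes, 5 had a negative difference. NDRG1, a hypoxia-induced growth regulator, measured 11.15 and 10.75 against 10.54 and 10.21, without overlap, a difference of -0.58 ± 0.18 (SE, limma adjusted p 0.245). KDM3A, a histone H3 lysine demethylase, measured 8.68 and 8.17 against 8.11 and 8.04, and MXI1, a MYC antagonist, 8.19 and 8.10 against 7.91 and 7.86. Both were lower without overlap, KDM3A by a narrow margin on its second vector-only array. ANKRD37, an ankyrin repeat gene, measured 6.89 and 6.56 against 6.43 and 6.57. BHLHE40, a transcriptional repressor, ran against the others, at 7.74 and 8.68 against 8.41 and 8.84, with the second array of each group the higher and a difference of 0.42 ± 0.30 (SE). DDIT4, an inhibitor of the growth kinase mTORC1, measured 8.19 and 7.76 against 6.84 and 7.92, so that 1 H1.3-labelled array alone was low.

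Glycolytic enzymes and the other hypoxia targets were then set side by side. The median difference was -0.065 for the enzymes and -0.245 for the other targets, 0.18 apart. As the median deviation from each gene's 4-array mean, the enzymes stood at 0.19 and -0.11 in the vector-only pair and 0.02 and -0.13 in the H1.3-labelled pair. The other targets stood at 0.25 and -0.07 in the vector-only pair and at -0.07 and -0.13 in those labelled H1.3. In both classes the first vector-only array was the highest of the 4, and the second vector-only array lay near the H1.3-labelled pair. The pooled SD between arrays of a group was 0.17 for the enzymes and 0.16 for the other targets. On each array, enzymes minus other targets came to -0.06 and -0.04 in the vector-only pair and 0.09 and 0 in the H1.3-labelled pair. The pooled SD of this distance was 0.04, which is not on the scale of the 0.18 above, a difference of medians of gene differences. Among the 16 other targets, the groups did not overlap for 6 lower (EGLN3, VEGFA, BNIP3L, NDRG1, KDM3A and MXI1) and 4 higher ones (EGLN1, CA12, ADM and ERO1A). These were 37.5% and 25%, against 19.4% and 21.2% of all clusters. Over clusters at or above the median level, where 14 of these 16 lie, the shares without overlap were 25.9% and 21.7%. Whether the classes differ in this was not tested.

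Both medians moved when a vector-only array was left out. Without vector-only replicate 1 the enzymes had a median of 0.02, with 6 negative and 10 positive differences, and the other targets one of -0.06, with 10 negative and 6 positive. Without vector-only replicate 2 the medians were -0.23 and -0.40, and 14 of 16 enzymes had a negative difference. They were -0.14 and -0.21 without H1.3 replicate 1 and -0.05 and -0.26 without H1.3 replicate 2. The distance between the classes was 0.08 to 0.21 in these comparisons, which share arrays. Between single arrays, the medians of enzymes and other targets were -0.12 and -0.415 for H1.3 replicate 1 minus vector-only replicate 1 and 0.09 and -0.04 against vector-only replicate 2. For H1.3 replicate 2 they were -0.31 and -0.325 against vector-only replicate 1 and 0 and -0.04 against vector-only replicate 2, so the classes lay within 0.04 of each other in both. Since the members were chosen with results of these data known, no p-value is given for either class.

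**Figure D3:**
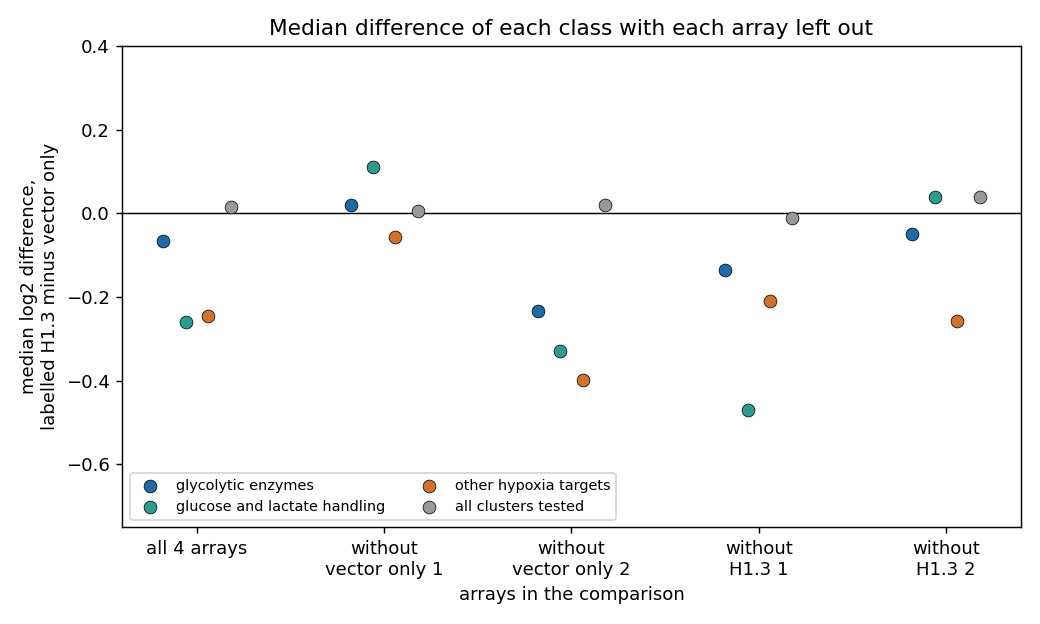
Median log2 difference of 3 classes of members and of all clusters tested, with all 4 arrays and with each array left out. Without vector-only replicate 1 the glycolytic enzymes stand at 0.02 and the other hypoxia targets at -0.06, and without vector-only replicate 2 at -0.23 and -0.40, while all clusters stay within 0.04 of 0.

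The vector-only arrays differed widely in this gene set, whereas the median gap of the H1.3-labelled pair was near that of all clusters. Over the 39 members the median size of the gap between the 2 vector-only arrays was 0.33, and that between the 2 arrays labelled H1.3 was 0.17, against 0.13 and 0.15 over all clusters tested. Replicate 1 was above replicate 2 for 32 members in the vector-only pair and for 29 in the H1.3-labelled pair. It was above in both pairs for 26 of 39 members, or 66.7%, against 24.9% of all clusters. By class these were 12 of 16 glycolytic enzymes, 5 of 5 genes of glucose and lactate handling, 9 of 16 other targets and 0 of 2 HIF alpha subunits. The vector-only gap was also wider than the difference between groups for 14 of 16 enzymes and 9 of 16 other targets, and for 51.1% of all clusters.

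Wide gaps in both groups were found in a subset of members. In 7 of 39, replicate 1 exceeded replicate 2 by at least 0.5 in both groups, a bound set after the values were seen, as it did in 0.273% of all clusters. They were BNIP3 (gaps of 1.77 and 0.91), PDK1 (1.40 and 0.88), PFKP (1.20 and 0.75), P4HA1 (1.20 and 0.54), HK2 (1.12 and 0.61), PFKFB4 (1.10 and 0.62) and PFKFB3 (0.50 and 0.74). In linear terms BNIP3 was 3.41-fold higher in the first than in the second vector-only array and 1.88-fold higher in the first H1.3-labelled array. Short of the bound but also higher in replicate 1 of both groups were, among others, P4HA2 (0.57 and 0.34), NDRG1 (0.40 and 0.33), GPI (0.37 and 0.35) and PFKL (0.32 and 0.29). ALDOC and ENO2 had gaps of 0.79 and 0.68 in the vector-only pair and of 0.02 and -0.04 in the other. BHLHE40 ran in the reverse order, with gaps of -0.94 and -0.43, and DDIT4 had gaps of 0.43 and -1.08. Across the 39 members, which share the same 4 arrays, Pearson's r between the gaps of the pairs was 0.66, across all clusters it was 0.06, and across clusters at or above the median level, where 36 of the 39 members lie, it was 0.20. The members were chosen with earlier results of these data known, and whether their gaps differ from those of all clusters was not tested. The labels do not say what arrays with the same number share.

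**Figure D4:**
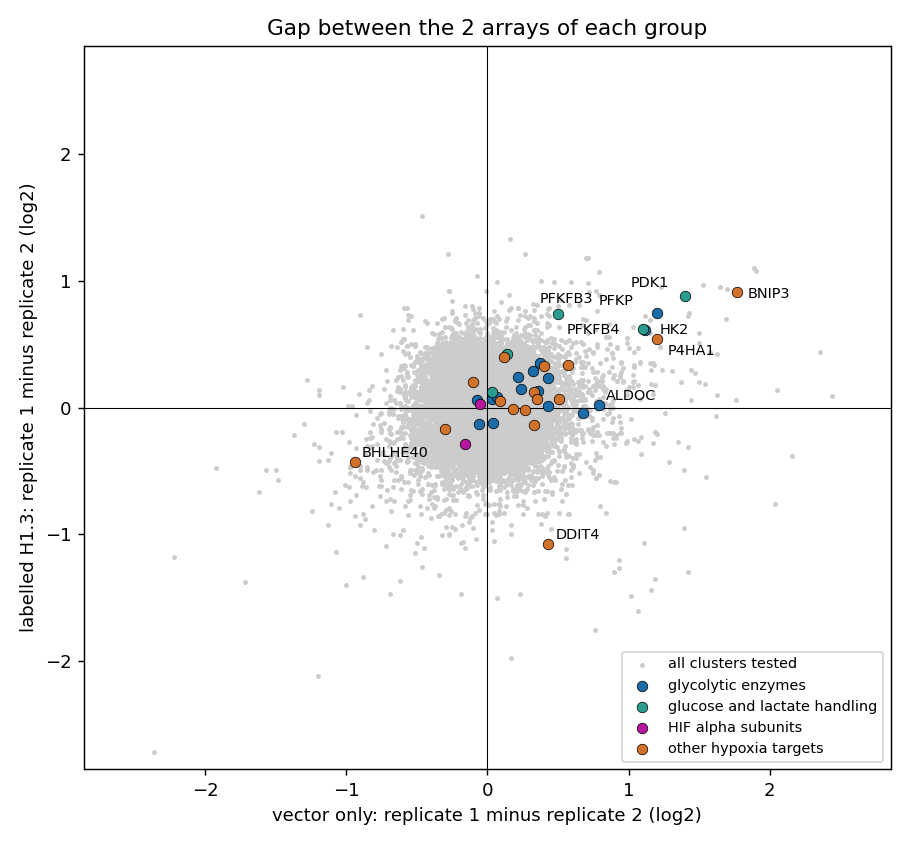
Gap between replicate 1 and replicate 2 in the vector-only pair (horizontal axis, log2) and in the pair labelled H1.3 (vertical axis, log2); grey points are all 21214 clusters tested and coloured points the 39 members. BNIP3, PDK1, PFKP, P4HA1, HK2 and PFKFB4 lie in the upper right, BHLHE40 in the lower left and DDIT4 at the lower right of the centre.

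Promoters of the genes with wide gaps are shown here with 1 form of the core of the hypoxia response element in capitals. This form is ACGTG, or CACGT where it lies on the other strand. CACGTG holds both, and counts as 1 place. Each run is the 250 bases before a RefSeq transcription start, 5′ to 3′ on the gene's strand, from the table of build GRCh38.p14, and for a gene with several starts the one with the most matches was taken. BNIP3, PDK1, P4HA1 and HK2 stand for the wide gaps, LDHA for an enzyme with smaller gaps, and LDHB for an enzyme whose 4 values lay close together.
BNIP3: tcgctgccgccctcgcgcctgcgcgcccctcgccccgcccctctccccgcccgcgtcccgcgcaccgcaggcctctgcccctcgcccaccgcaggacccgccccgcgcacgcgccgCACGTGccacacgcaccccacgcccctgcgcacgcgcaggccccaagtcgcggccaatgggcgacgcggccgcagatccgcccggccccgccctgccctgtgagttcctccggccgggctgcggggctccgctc
PDK1: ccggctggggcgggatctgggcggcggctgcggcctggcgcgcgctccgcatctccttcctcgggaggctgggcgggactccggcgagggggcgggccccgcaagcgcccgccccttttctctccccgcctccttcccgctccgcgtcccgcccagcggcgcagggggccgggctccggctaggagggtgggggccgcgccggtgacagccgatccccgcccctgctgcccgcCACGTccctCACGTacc
P4HA1: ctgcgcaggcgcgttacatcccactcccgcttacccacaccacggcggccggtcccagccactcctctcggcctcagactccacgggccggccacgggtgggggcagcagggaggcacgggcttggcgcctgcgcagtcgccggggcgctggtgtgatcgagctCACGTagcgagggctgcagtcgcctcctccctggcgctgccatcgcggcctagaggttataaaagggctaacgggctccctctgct
HK2: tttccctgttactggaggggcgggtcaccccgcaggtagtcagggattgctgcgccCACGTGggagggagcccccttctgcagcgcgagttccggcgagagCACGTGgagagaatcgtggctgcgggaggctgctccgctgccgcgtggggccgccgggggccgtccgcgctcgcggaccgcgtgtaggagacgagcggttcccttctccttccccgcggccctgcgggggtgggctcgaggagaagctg
LDHA: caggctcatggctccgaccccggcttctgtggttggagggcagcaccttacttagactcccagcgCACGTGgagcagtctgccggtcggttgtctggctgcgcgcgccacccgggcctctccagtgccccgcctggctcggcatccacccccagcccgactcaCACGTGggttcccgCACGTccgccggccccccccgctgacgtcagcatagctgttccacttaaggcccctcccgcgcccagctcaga
LDHB: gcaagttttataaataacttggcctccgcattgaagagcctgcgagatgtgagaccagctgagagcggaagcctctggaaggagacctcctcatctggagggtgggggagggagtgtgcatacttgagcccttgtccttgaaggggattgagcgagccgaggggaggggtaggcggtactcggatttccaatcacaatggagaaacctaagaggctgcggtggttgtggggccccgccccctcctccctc
The runs lie at chr10:131981924-131982173 (minus strand) for BNIP3, chr2:172555840-172556089 (plus) for PDK1, chr10:73096867-73097116 (minus) for P4HA1 and chr2:74834920-74835169 (plus) for HK2. Those of LDHA and LDHB lie at chr11:18394313-18394562 (plus) and chr12:21657843-21658092 (minus). The core, in the capitalised form used for the counts that follow, stood at 1 place in BNIP3 and P4HA1, at 2 in PDK1 and HK2, at 3 in LDHA and at 0 in LDHB. Its absence from LDHB is not shared by all steady enzymes. GAPDH (gaps of 0.03 and 0.07) and PFKM (0.04 and -0.12), not printed, held the core at 1 place each. Among the 35 members with a promoter entry, 21 (60%) held it in at least 1 window, as did 21.7% of all 27305 genes. By window, 24 of their 61 (39.3%) held it, as did 18.5% of all 35116 windows. The members were listed as genes of glycolysis and the hypoxia response, so a share above that of all genes says nothing about the gaps. Of the 7 members with wide gaps 6 held it (85.7%, against 60% of all members, these 7 included), the exception being PFKFB4. By window, 7 of their 13 (53.8%) held it, against 39.3% of all member windows. Members outside these 7 held it too, among them LDHA and BHLHE40 at 3 places each. Whether the core goes with the gaps was not tested. A second form of the core, GCGTG or CACGC, which can overlap the first, stood in 37.7% of member windows and 32.2% of all windows. It had 4 matches in the BNIP3 run and 2 in the HK2 run, left in lower case, and 0 in the other runs printed. PFKFB4, without the first form, had 1 match.

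The wider pathway was read from 7 further lists of 81 genes, of which 73 had a cluster of their own and 0 passed. Of the 73, 10 had an unadjusted limma p under 0.05, 1 higher and 9 lower. Over all clusters the shares were 5.21% higher and 6.34% lower, or 11.5% in either direction. The 9 further glycolysis isozymes had a median of 0.11, and 6 were positive, but only 2 of the 9 lay at or above the median level. Of 12 genes of the HIF machinery 7 were positive, with a median of 0.04. ARNT, the partner of the alpha subunits, measured 8.57 and 8.59 against 8.76 and 9.04, and the median difference of its 30 neighbours was 0.26 for those at or above the median level and 0.17 for those of any level. Of 11 genes of pyruvate oxidation the one with the smallest p was DLAT, the E2 subunit of pyruvate dehydrogenase, at 9.01 and 8.85 against 8.16 and 8.47. Its own difference was -0.62, and its 30 neighbours on chromosome 11 had a median difference of -0.67 for those at or above the median level and -0.16 for those of any level. Of 6 genes of the pentose phosphate pathway 5 were negative, with a median of -0.19, and of 6 genes of gluconeogenesis 4 were, with a median of -0.01.

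Glycogen genes and the further hypoxia targets held the widest differences of these lists. PPP1R3C, a hypoxia-induced subunit that targets phosphatase to glycogen, measured 7.59 and 6.64 against 6.11 and 5.83, a difference of -1.15 ± 0.28 (SE, limma adjusted p 0.154). GBE1, the glycogen branching enzyme, measured 8.94 and 8.74 against 8.28 and 8.16, a difference of -0.62 ± 0.13 (SE, limma adjusted p 0.108). In both genes the H1.3-labelled arrays were lower without overlap. STC2, the secreted glycoprotein stanniocalcin 2, measured 7.69 and 7.60 against 6.63 and 7.0, a difference of -0.83 ± 0.15 (SE) with a limma adjusted p of 0.0821. WSB1, a ubiquitin ligase subunit, measured 10.29 and 10.08 against 9.60 and 9.67. The 22 further hypoxia targets had a median of -0.07, with 14 negative and 8 positive differences and 0 passing. In 9 of these 22 (40.9%), replicate 1 was above replicate 2 in both groups, against 24.9% of all clusters. In 0 of 22 it was so by at least 0.5 in both, a bound set after the values were seen, against 0.273% of all clusters. PLOD2, with gaps of 0.92 and 0.48, and CXCR4, with 0.78 and 0.48, fell just short, CXCR4 at levels below the median of the arrays.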

How the data were processed

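The authors deposited log2 values for 33297 transcript clusters, 1 column per array, to 2 decimals. Per the submitters' processing notes, RMA and the Affymetrix Expression Console belong to that processing, with no role or order given. No version or genome build was found in the labels. RMA equalises the arrays, so a shift shared by all genes would not be seen. No probe intensities or detection calls were used, so background could not be set.

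Clusters were named from the platform annotation, updated through gene identifiers to RefSeq (GRCh38.p14). The 21214 clusters with a symbol were tested with limma 3.58.1 in R 4.3.3 (lmFit, eBayes, two-sided, Benjamini-Hochberg over all). The fit had 2 residual and 5.16 prior degrees of freedom, and the SEs given are moderated too. A gene with several clusters is shown by that of highest mean. The number of arrays limits the precision, with a median SE of 0.13. Steps were tested on simulated data. The 42 members, the lists and the classes were chosen with earlier results of these data known. Statistics are given for up to 4 members per class by smallest p and 4 by widest vector-only gap, and for wider lists for passing genes or up to 2 by smallest p. Neighbour medians cover 30 genes in RefSeq order, of any level or, added after seeing the data, only at or above the median level (had for 35 members). Alternatives changed scaling, moderation, filter, clusters, block and arrays. Figures used matplotlib 3.10.9 in Python 3.11.15.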

Additional observations from a re-analysis of the deposited data

How the results depend on the processing

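The call of EPAS1 and the size of the class medians depended on the settings. Members called, 1 with all arrays, were 2 with an intensity trend and robust moderation, where BNIP3L joined (adjusted p 0.0435), and 0 with all transcript clusters, with clusters below the median level left out, without moderation, with the replicate block, with arrays at one median over all clusters (added after seeing the data), and in all leave-one-out fits (0 to 0). EPAS1 then had a limma adjusted p of 0.214, 0.0699, 0.621, 0.167 and 0.0701, and it stayed called with the trend, a further quantile normalization and the mean of a gene's clusters. Clusters called over all tested, 107, were 4, 25, 9, 0 and 50 in the same 5 settings, 245 with the trend, 311 at an adjusted p under 0.10 and 0 to 0 on leaving out an array, with 1292 to 2367 at an unadjusted p under 0.05. The enzymes lay 0.24 above the other hypoxia targets with dim clusters left out, and 0.075 to 0.21 on leaving out an array, where their own median ran from -0.23 to 0.02 and that of the other targets from -0.40 to -0.0575. Leave-one-out differences changed sign for 14 of 39 members. Among the 21 with statistics these were HK2 (-0.35 to 0.78), PFKP (-0.995 to 0.21), PFKFB3 (-0.45 to 0.29), PFKFB4 (-0.82 to 0.28), P4HA1 (-1.15 to 0.05), P4HA2 (-0.15 to 0.42) and BHLHE40 (-0.055 to 0.89). A single remaining array took its spread from the pair of the other group. The cause was not tested. Other scalings, neighbour corrections and list makeups moved the class medians by less than the spread between arrays.

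Under the replicate block, limma called 0 clusters (2195 unadjusted), and 9 members had an unadjusted p under 0.05. The gaps of the groups correlated at 0.06 over all clusters, at 0.20 over those at or above the median level and at 0.66 over the members. With the block the SE of the difference went from 0.54 to 0.23 for BNIP3 and from 0.45 to 0.17 for PDK1. Neither passed (limma adjusted p 0.278 for both). For HIF1A the SE stayed near 0.11. There are only 2 pairs and no batch is named in the labels, so same-numbered arrays were treated as unpaired. The SEs given for members with wide gaps in both groups thus include what same-numbered arrays share.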

Other observations

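The pattern of gaps was not limited to the genes of glycolysis and hypoxia. In all, 58 clusters had replicate 1 at least 0.5 above replicate 2 in both groups, 7 of them on members and 51 not. The metallothionein genes MT2A and MT1F, whose products bind zinc and copper, were among the latter and were picked out after their values were seen. MT2A measured 11.49 and 10.29 in the vector-only pair against 11.34 and 10.59 in the H1.3-labelled pair, and MT1F measured 10.15 and 9.0 against 9.81 and 9.12. Of the 8 MT1 and MT2 genes with a cluster of their own, 6 were higher in replicate 1 in both groups, against 24.9% of all clusters. MT1M and MT1X ran the other way in the H1.3-labelled pair, with gaps of -0.06 and -0.2. Over the 8 genes the differences between groups lay between -0.23 and 0.29, with limma adjusted p from 0.674 to 0.970. These genes resemble each other in sequence, so their signal may be shared. HCAR1, the lactate receptor gene, was also among the 58, at 4.75 and 3.89 against 4.36 and 3.80, below the median level of the arrays.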
